A study of Capra hircus with 3 samples.

Results

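Among 6849 cells of dorsal skin from goat fetuses at E60, day 60 of gestation, 1494 cells were chosen by 16 genes and are called members here. They made up 21.8% of the E60 library (95% interval 20.8 to 22.8) out of 20676 cells in the whole series. A member had at least 1 UMI, that is, 1 counted RNA molecule, for at least 4 of ANGPT1, CADM3, GDF10, ANPEP, ACTA2 and ECM2. It also had UMIs for fewer than 3 of the tendon and cartilage genes THBS4, COL2A1, CYTL1 and TNMD, and for fewer than 4 of SMOC2, SEMA3C, SERPINF1, MFAP5, LMCD1 and EFHD1, genes of a fibroblast population led by SMOC2. The working name was mesenchyme with GDF10, ANGPT1 and ACTA2.

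The series follows hair follicle formation in Northern Shaanxi White Cashmere goats by droplet-based single-cell RNA sequencing, with 1 library each for E60, E90 and E120. The submitters name these stages induction, organogenesis and cytodifferentiation of the follicle. Whole back skin was dissociated with collagenase IV at E60 and E90, whereas at E120 the follicles were dissected out first and dissociated with TrypLE. Cells of at least 2 fetuses were pooled before barcoding at each stage, so neither fetuses nor their number can be told apart in the data. The series text states 19705 cells and the table holds 20676. With 1 library per stage there is no replicate. Every comparison below is therefore a description of 1 library with no test, and intervals cover counting error only.

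Dermal fibroblasts descend from a loose mesenchyme that splits into lineages for the upper dermis, the lower dermis and the sheaths around vessels and muscle. Some of its cells gather under epithelial placodes as dermal condensates, which signal to the epithelium and become the papilla of the hair follicle. The 6 genes of the rule belong to different pathways. ANGPT1 encodes angiopoietin-1, a ligand of the endothelial receptor TIE2. GDF10 encodes a secreted member of the TGF-beta superfamily. CADM3 encodes an adhesion molecule of the immunoglobulin superfamily, ANPEP a surface aminopeptidase, ACTA2 smooth muscle actin, and ECM2 an extracellular matrix protein.

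Values are given as CPM, the UMIs of a gene per 1000000 UMIs, summed over a group of cells. The members held 15085716 UMIs in all, and a member carried 9121 UMIs and 1895 genes at the median. The other 5355 E60 cells had medians of 8427 UMIs and 1798 genes, so the members were slightly deeper. The share of mitochondrial UMIs was alike, with medians of 4.57% and 4.5%. Of the members, 5.89% were called doublets, against 2.93% of the other E60 cells. Few barcodes were shared between libraries, 9 between E60 and E90, 10 between E60 and E120 and 13 between E90 and E120.

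The values of the 6 genes chose the members and are given as a description. ANGPT1 stood at 123 CPM in the members (95% interval 118 to 129) and 11.8 CPM in the other E60 cells. CADM3 stood at 375 and 71.8 CPM and GDF10 at 363 and 91.8 CPM. In 136 cells of endothelial-like clusters, with a higher median of 15732 UMIs, they had a UMI in 2.21%, 8.82% and 8.09% of cells. In myeloid-like clusters, at a median of 8788 UMIs, ANGPT1 was found in 17.8% of cells, CADM3 in 8.47% and GDF10 in 11.0%. In the members the shares with a UMI were 57.6% for ANGPT1, 84.7% for CADM3 and 97.3% for GDF10. At an even depth of 6000 UMIs per cell they were 44.8%, 73.8% and 86.8%, against 5.42%, 17.7% and 29.3% of the other E60 cells.

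ANPEP was at 552 CPM in the members and 190.2 CPM in the other E60 cells, and ECM2 at 72.6 and 25.3 CPM. Of the 6 genes, ANPEP was the most widely found outside the members, in 53.5% of the other E60 cells at 6000 UMIs. In endothelial-like clusters, ANPEP had a UMI in 19.1% of cells and ECM2 in 19.1%, and in myeloid-like clusters in 25.4% and 1.69%. ACTA2 was at 392 CPM in the members, at 150.4 CPM in all other E60 cells and at 86.5 CPM in those of fibroblast-like clusters. A UMI of ACTA2 was found in 79.4% of members, 14.7% of endothelial-like cells and 8.47% of myeloid-like cells. A median member carried 3 UMIs of ANPEP, 2 of GDF10, 1 each of CADM3 and ACTA2 and 0 of ANGPT1 and ECM2 among 6000 UMIs. The rule therefore rested on few molecules per cell.

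**Figure D1:**
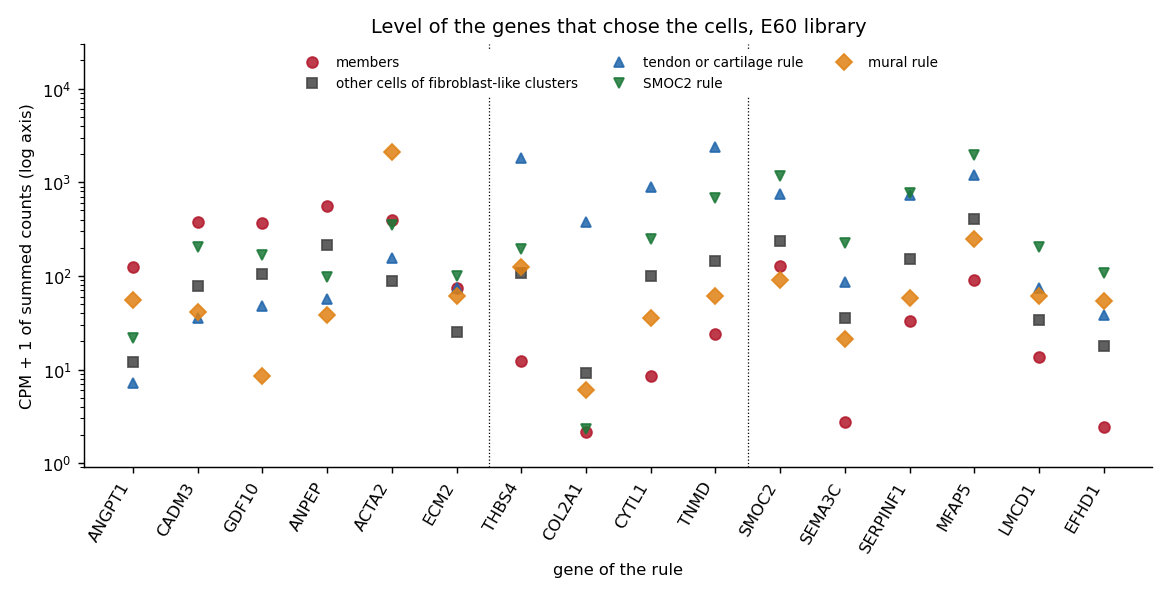
CPM + 1 on a log axis of the 16 genes that chose the cells, in 5 groups of E60 cells: the 1494 members, 4713 other cells of fibroblast-like clusters, 388 cells of the tendon or cartilage rule, 566 of the SMOC2 rule and 37 of the mural rule; each point is 1 summed value and the dotted lines part the 6 needed genes from the 4 and 6 excluded ones. The members are highest for ANGPT1, CADM3, GDF10 and ANPEP, whereas ACTA2 is highest in the mural rule at 2125 CPM and ECM2 in the SMOC2 rule at 99.5 CPM.

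The number of these 6 genes found per cell formed a range and not separate groups. From 0 to 6 genes there were 889, 1636, 1433, 1200, 848, 592 and 251 cells. Of the members, 735 had 4 genes, 525 had 5 and 234 had all 6. Just outside stood 1044 cells that had 3 genes and met both limits. Between cells just outside and just inside, ANGPT1 stood at 24.7 and 67.5 CPM, CADM3 at 157.9 and 264 CPM, GDF10 at 222 and 311 CPM and ANPEP at 366 and 475 CPM. ACTA2 was at 218 and 253 CPM and ECM2 at 23.7 and 39.2 CPM on the same sides. Members with 4 genes lacked ECM2 in 71.6% and ANGPT1 in 64.2% of cases, but ANPEP in only 2.58% and GDF10 in 4.63%.

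The limits on the other genes kept out few cells. At least 4 of the 6 genes were found in 1691 cells. Of these, 169 were left out by the SMOC2 limit alone, 11 by the tendon or cartilage limit alone and 17 by both. Membership also moved with depth. When every cell was thinned to 6000 UMIs, below the shallowest cell, the rule found 1091 cells, or 15.9% of the library. It kept 1069 of the members, 71.5% of them, and added 22 cells.

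Clustering of the E60 cells without the 16 genes gave 25 clusters, and 19 of them held at least 1 member. The members were not 1 cluster. Cluster 4, a cluster of 603 cells, held 491 members, and they made up 81.4% of it (78.1 to 84.5). That was 32.9% of all members. Besides genes of the rule, its 10 leading genes were PCOLCE2, HTR2A, CBR3, ALDH1A1 and COX6B2. Cluster 1, the largest at 1216 cells and led by TMEM35A and RCAN2, held 404 members, 33.2% of its cells (30.6 to 36.0) and 27.0% of all members.

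A further 340 members lay in fibroblast-like clusters of cycling cells, called cycling clusters here. The mural-like and muscle-like clusters also met the level of cell cycle genes set for them and are not counted among them. Clusters 6, 7 and 11, led by histone, replication and mitosis genes, held 148 of 459, 147 of 427 and 44 of 199 cells. By contrast, members were 0 of 299 and 0 of 149 cells in clusters 8 and 12, cycling clusters with TNNI1 among their leading genes. Counts of 0 in these clusters allow shares of up to 1.23% and 2.44% (upper 95% limits). Cluster 2, led by ISM1 and DKK1, held 5 members among 708 cells. Cluster 5, led by the excluded genes SEMA3C, SERPINF1 and SMOC2, held 41 among 512.

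Fibroblast-like clusters, 16 of the 25, held 6160 of the 6849 E60 cells and 1447 members, or 96.9% of the members. Members were 23.5% of the cells in them (22.4 to 24.6). The other clusters held fewer cells. Members were 28 of the 142 cells of the mural-like cluster, or 19.7% (13.5 to 27.2). They were 7 of the 29 cells of a cluster led by haemoglobin genes, or 24.1% (10.3 to 43.5). These shares were near the 21.8% of the whole library. A further 7 members lay in the Schwann-like, 4 in the endothelial-like and 1 in the myeloid-like clusters. Members were 0 of 146 tendon- or cartilage-like and 0 of 53 muscle-like cells. Of the members in fibroblast-like clusters, 31 lay in cluster 17, in which 92.2% of the 77 cells were called doublets. The part that doublets played in these members was not tested. In the 2 clusters that held the most members, doublet calls fell on 0.611% of members in cluster 4 and 0.743% in cluster 1.

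**Figure D2:**
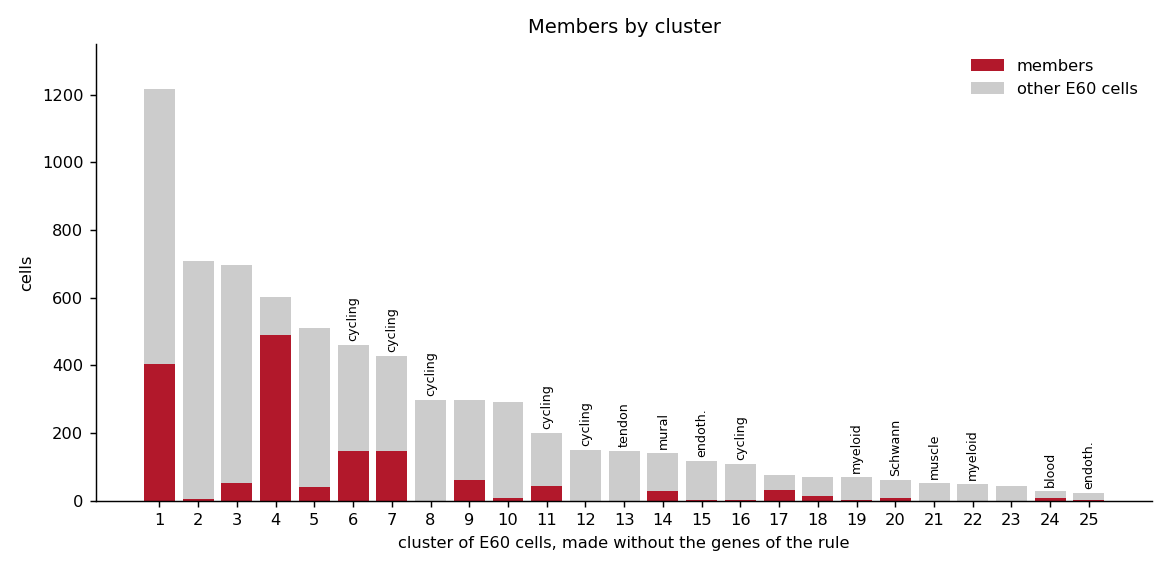
Cells per cluster of the E60 library, with members in red and other cells in grey, for 25 clusters ordered by size and made without the genes of the rule; the words above bars give the class named from markers, or cycling for fibroblast-like clusters with high cell cycle genes. Cluster 4 is mostly members (491 of 603), cluster 1 holds 404 of 1216, and clusters 8, 12, 13, 21, 22 and 23 hold none.

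Markers of fibroblasts were high in the members. COL1A1, a fibrillar collagen chain, and LUM and DCN, matrix proteoglycans, were each found in at least 99.9% of members, at 1826, 3858 and 5312 CPM. In endothelial-like clusters, COL1A1, LUM and DCN had a UMI in 40.4%, 86.0% and 79.4% of cells, and in myeloid-like clusters in 28.8%, 89.8% and 82.2%. The 8 fibroblast markers summed to 13983 CPM in the members, whereas the sums were 1680 CPM for endothelial-like clusters and 1596 CPM for myeloid-like ones. The sum was 12383 CPM in the other cells of fibroblast-like clusters. It was higher than in the members in the cells of the tendon or cartilage rule, at 24482 CPM, and of the SMOC2 rule, at 29145 CPM. PDGFRA, a growth factor receptor of mesenchyme, was at 30.6 CPM in the members and 33.5 CPM in the other E60 cells. Of 8 fibroblast markers in the table, 7 reached 10 CPM. None of them differed by 2-fold, and their median log2 ratio of CPM + 1, members over other E60 cells, was 0.16.

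Markers of other cell types were low. The 8 epithelial markers summed to 0.265 CPM, with 6 of them at 0 UMIs, including KRT5 and KRT14. The 9 endothelial markers summed to 17.2 CPM against 2105 CPM in endothelial-like clusters, and the 7 myeloid markers to 12.2 CPM against 3856 CPM in myeloid-like clusters. The 7 Schwann and 8 muscle markers summed to 6.10 and 8.88 CPM. In the other cells of fibroblast-like clusters, endothelial, myeloid and Schwann markers summed to less than in the members, at 8.41, 5.13 and 4.76 CPM. Muscle and epithelial markers summed to more there, at 12.4 and 6.67 CPM. The members were not limited to those clusters. Of the defining markers, CLDN5 of endothelium, CSF1R and TYROBP of myeloid cells and MYOD1 of muscle stood at 0 in the members.

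Markers of mural cells, the pericytes and smooth muscle cells around vessels, were lower in sum in the members than in the other E60 cells. In the members, ABCC9 and KCNJ8, subunits of a potassium channel of pericytes, were at 16.2 and 5.30 CPM, and the receptor NOTCH3 at 26.5 CPM. In the other E60 cells they stood at 50.5, 17.3 and 39.5 CPM. RGS5, a regulator of G protein signalling, was at 0.265 CPM in the members. It was under 10 CPM in the other E60 cells as well, so its low level does not set the members apart. Over all 6 mural markers in the table, the sum was 49.0 CPM in the members, 109 CPM in the other E60 cells and 1771 CPM in 37 cells that had at least 4 mural markers and were not members. Of the 44 cells that met the mural rule, 7 were also members. Some other genes high in the 37 cells were above the other E60 cells in the members as well. ENSCHIG00000000498 was at 615 CPM in the 37 cells and 386 CPM in the members, and TPM2, a tropomyosin, at 1691 and 172 CPM, with 122 CPM in the other E60 cells.

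Across genes outside the rule, 2019 reached 50 CPM in the members or in the other E60 cells. Of these, 13 were at least 2-fold higher in the members (0.644%) and 59 at least 2-fold lower (2.92%). The median log2 ratio over the 2019 genes was 0.03, with quartiles of −0.09 and 0.16. Against the other cells of fibroblast-like clusters alone, 16 of 1997 genes were at least 2-fold higher (0.801%) and 35 lower (1.75%). These differences come from the cells that the rule sorted, so they describe the members and support nothing about them.

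Among genes with a symbol, CBR3, a carbonyl reductase, stood furthest above the other E60 cells, at 219 CPM (211 to 226) against 81.9 CPM, a log2 ratio of 1.40. It was found in 67.8% of members and 32.6% of other E60 cells at 6000 UMIs. FN1, the matrix protein fibronectin, was at 169 and 74.5 CPM, and TPM1, a tropomyosin of actin filaments, at 77.3 and 33.8 CPM. Both had log2 ratios of 1.17, so ACTA2 was not the only gene of actin filaments above the other cells.

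RCAN2, an inhibitor of calcineurin, was at 477 CPM in the members and 215 CPM in the other E60 cells, and DDAH1, an enzyme that degrades inhibitors of nitric oxide synthesis, at 144 and 64.6 CPM. Of the remaining genes at least 2-fold higher, MXRA5, a large matrix protein, was at 1029 and 494 CPM. COX6B2, CD248, BVES and MATN2 had log2 ratios of 1.11, 1.05, 1.04 and 1.01. CD248 encodes endosialin, a surface protein of stromal cells, and MATN2 a matrilin of the matrix. The remaining 3 of the 13 carried identifiers without a symbol, and 2 of them had the highest ratios of all. ENSCHIG00000026375 was at 214 against 53.6 CPM, a log2 ratio of 1.98, and ENSCHIG00000000498 at 386 against 97.6 CPM, a log2 ratio of 1.97.

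CD44, the hyaluronan receptor, was at 301 and 154 CPM, TNC, the matrix protein tenascin-C, at 915 and 472 CPM, GPC3, a cell surface proteoglycan, at 94.0 and 48.2 CPM, and PPARG, a nuclear receptor of fat formation, at 53.0 and 27.1 CPM. With TMEM35A at 92.5 and 48.0 CPM, these completed the 15 highest genes with a symbol and were under 2-fold. Without the limits on excluded genes, CBR3, FN1, TPM1 and DDAH1 were at 1.28, 1.11, 1.09 and 1.02, CD44 and GPC3 at 1.09 and 1.13, and RCAN2, COX6B2, MXRA5, CD248, BVES and MATN2 just under 2-fold at 0.91 to 0.97. Against the other cells of fibroblast-like clusters alone, CBR3, TPM1, DDAH1, RCAN2 and FN1 were still at least 2-fold higher, and COX6B2, MXRA5, CD248, BVES and MATN2 were at 0.95, 0.93, 0.90, 0.92 and 0.86. TPM2, another tropomyosin, FAM129A and ABCG2, a membrane transporter, were above 2-fold in that comparison, at log2 ratios of 1.21, 1.19 and 1.09. PPARG was at 1.11. HBAI and HBAII, the haemoglobin chains, were at 3.96 and 4.42 there. With the members also limited to those clusters, HBAI and HBAII were at −0.13 and −0.42, and TPM2 at 0.98. FAM129A was at 188 CPM in the members, but at 260 CPM in the cells of the SMOC2 rule and 317 CPM in those of the tendon or cartilage rule. In these groups, in that order, GPC3 was at 137 and 85.8 CPM and CD44 at 295 and 192 CPM. By contrast, CBR3 was at 55.3 and 30.9 CPM and RCAN2 at 54.0 and 47.4 CPM there. In the 812 cells of cluster 1 that were not members, TMEM35A, RCAN2, BVES, MXRA5 and DDAH1 were at 128, 552, 66.6, 1084 and 152 CPM. These genes were higher there than in the members as a whole, and the rest of the 15 were lower.

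The genes furthest below the other E60 cells fell into genes of other fibroblasts and genes of other cell types. DLK1, a surface protein of fat and muscle precursors, was at 90.6 CPM in the members against 1024 CPM, a log2 ratio of −3.48. ANGPTL1, an angiopoietin-like protein, was at 5.90 and 74.0 CPM, IGF1, the growth factor, at 9.02 and 93.9 CPM, and ASPN, a matrix proteoglycan, at 44.7 and 383 CPM. IGFBP6, which binds insulin-like growth factors, and CAPN6 had log2 ratios of −2.82 and −2.58. Most of these genes were highest in the cells that the limits keep out. DLK1 was at 4062 CPM in the 388 cells with at least 3 tendon or cartilage genes and at 4294 CPM in the 566 cells with at least 4 of SMOC2 and its companion genes and fewer than 3 of the former.

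The size of these differences depended on the limits. Without them, DLK1 was at −1.46, ANGPTL1 at −1.73, IGF1 at −1.69, ASPN at −1.36, IGFBP6 at −1.27 and CAPN6 at −1.39. All 6 were still more than 2-fold lower. DKK1, an inhibitor of WNT signalling, was at 16.4 and 97.7 CPM, a log2 ratio of −2.50, and at −2.55 without the limits.

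ACTC1 of muscle, PLVAP, DEPP1, SOX18, LMO2 and CCL21 of endothelium and CCL8 and SPP1 of myeloid cells were also among the 15 lowest genes with a symbol, at log2 ratios from −3.52 to −2.46. PLVAP, a protein of the endothelial diaphragm, was at 10.8 CPM in the members, 98.6 CPM in the other E60 cells and 2101 CPM in endothelial-like clusters. SPP1, osteopontin, was at 225 CPM in the members, 1242 CPM in the other E60 cells and 47102 CPM in myeloid-like clusters. Against the other cells of fibroblast-like clusters, PLVAP, DEPP1, CCL21, CCL8 and SPP1 turned to log2 ratios of 1.11, 1.25, 1.90, 0.93 and 1.03. With the members also limited to those clusters, they were 0.14, 0.48, −0.08, −0.03 and −0.21. SOX18 and LMO2 were at −0.41 and −1.20 against the other cells of fibroblast-like clusters, and at −1.72 and −1.996 with both groups so limited. ENSCHIG00000021348 and ENSCHIG00000017081, identifiers without a symbol, were at 18.6 against 186 CPM and 8.22 against 67.3 CPM.

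**Figure D3:**
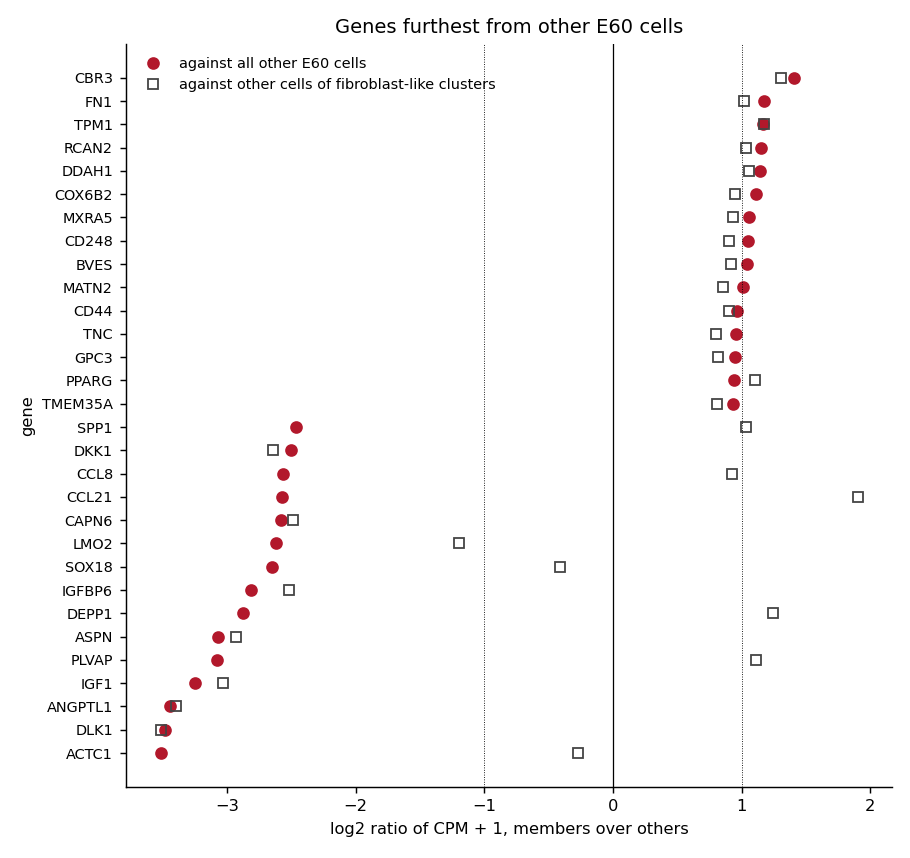
Log2 ratio of CPM + 1, members over other cells, for the 15 highest and 15 lowest genes with a symbol outside the rule; filled circles compare with all 5355 other E60 cells and open squares with the 4713 of fibroblast-like clusters, and dotted lines mark 2-fold. CBR3, FN1, TPM1, RCAN2 and DDAH1 stay above 2-fold in both, DLK1, ANGPTL1, IGF1 and ASPN stay far below, and PLVAP, DEPP1, CCL21, CCL8 and SPP1 change sides.

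Gene lists were read at a minimum of 10 CPM in either group. Among the 5149 genes outside the rule that reached it, 0.486% were at least 2-fold higher in the members and 4.29% at least 2-fold lower than in the other E60 cells, with a median log2 ratio of −0.002. Against the other cells of fibroblast-like clusters the shares were 0.833% and 2.18% of 5045 genes, with a median of 0.015. Counts for each list are given beside these shares, and nothing is called particular to a list.

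Of the contractile apparatus, 15 of 23 listed genes besides ACTA2 reached 10 CPM. TPM1 was 2-fold higher in the members than in the other E60 cells and DES, the intermediate filament desmin, 2-fold lower, at 23.9 and 61.6 CPM. The median log2 ratio was 0.03. It was 0.30 over 14 genes against the other cells of fibroblast-like clusters, where TPM2 was also 2-fold higher. CALD1, caldesmon of actin filaments, was at 1175 CPM in the members and 634 CPM in the other E60 cells, and MYH10, a non-muscle myosin, at 601 and 430.1 CPM. Genes typical of mature smooth muscle stayed low, with CNN1, calponin, at 1.86 CPM, MYH11, smooth muscle myosin, at 2.78 CPM and MYOCD, myocardin, at 0. TAGLN and MYL9, further smooth muscle genes, were at 0.597 and 0.0663 CPM. These were low in the cells of the mural rule as well, at 9.96 and 4.98 CPM, whereas MYH11 was at 117 CPM there.

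Among vessel ligands other than ANGPT1, 3 of 10 genes reached 10 CPM. ANGPTL2 was at 26.8 CPM in the members and 17.5 CPM in the other E60 cells, VEGFA, the vascular growth factor, at 27.6 and 28.6 CPM, and ANGPTL1 was lower as given above. TEK, the gene of the receptor TIE2, was at 0.199 CPM in the members, 0.620 CPM in the other E60 cells and 12.5 CPM in endothelial-like clusters. The co-receptors NRP1 and NRP2 were at 111 and 34.5 CPM against 88.0 and 33.7 CPM, and KDR, a VEGF receptor of endothelium, was at 5.57 and 31.6 CPM.

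Of TGF-beta and BMP ligands other than GDF10, 6 of 14 genes reached 10 CPM. All 6 were below the other E60 cells, with a median of −0.87. BMP4 was at 5.30 and 26.9 CPM and BMP7 at 5.10 and 40.0 CPM, and these were the only 2-fold differences. Both are BMP ligands of early skin. TGFB1, TGFB2 and TGFB3 were at log2 ratios of −0.88, −0.79 and −0.87. TGFB2 had another order among thinned cells of fibroblast-like clusters that met both limits. It went from 10.8 CPM with 0 of the 6 genes to 64.0 CPM with 6, whereas TGFB1 went from 21.0 to 1.49 CPM. None of 4 receptors at 10 CPM was 2-fold different. TGFBR3, the co-receptor betaglycan, was at 222 and 157 CPM, and ACVR1, a BMP type I receptor, at 92.5 and 79.5 CPM.

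BAMBI, a decoy receptor, was the only 2-fold lower gene among 6 carriers and inhibitors, at 2.45 and 24.7 CPM. Of 8 mediators and targets, ID1, ID3 and ID4, transcription regulators induced by BMP signals, were 2-fold lower. ID1 was at 80.0 and 213 CPM and ID3 at 88.6 and 206 CPM. Without the limits on excluded genes, ID1, ID3 and ID4 were at −0.64, −0.77 and −0.47, no longer past 2-fold, while BMP4 and BMP7 were at −1.19 and −2.60. TGFBI, a matrix protein induced by TGF-beta, was at 691 CPM in the members and 457 CPM in the other E60 cells.

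Most WNT inhibitors at 10 CPM were lower in the members. Of 11 genes measured, 6 reached 10 CPM, and DKK1, DKK2, SFRP1, FRZB and APCDD1 were at least 2-fold lower in the members, with a list median of −2.27. APCDD1, a membrane inhibitor of WNT signalling, was at 277 and 725 CPM. DKK2 was at 4.38 and 28.1 CPM, SFRP1, a secreted frizzled-related protein, at 8.35 and 48.3 CPM, and FRZB at 2.06 and 12.5 CPM. Without the limits these 5 were still 2-fold lower, with SFRP1 at −1.44 and DKK2 at −1.31.

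Of 4 WNT ligands and R-spondins at 10 CPM, none differed by 2-fold. WNT5B and WNT11 were at 24.9 and 30.4 CPM in the members against 12.7 and 15.8 CPM, and RSPO3 and WNT5A at 65.4 and 50.3 CPM against 79.3 and 59.9 CPM. Among 4 WNT targets, NKD1, a feedback inhibitor, was 2-fold lower at 7.69 and 39.2 CPM. AXIN2, LEF1 and CCND1 were below the other E60 cells by under 2-fold, at log2 ratios of −0.47, −0.46 and −0.40. FZD10, a receptor, was at 4.11 and 16.4 CPM.

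Matrix genes were mixed. Of 6 small leucine-rich proteoglycans besides ECM2, ASPN and BGN were 2-fold lower, BGN at 47.0 and 177 CPM, while DCN, LUM and OGN were at log2 ratios of 0.40, 0.28 and 0.33. Of 12 collagens, COL11A1 and COL12A1 were 2-fold lower, at 53.3 and 230.3 CPM and at 23.5 and 48.7 CPM, and without the limits COL12A1 was at −0.14. COL4A1, a basement membrane collagen, was 2-fold higher against the other cells of fibroblast-like clusters, at 92.3 and 44.9 CPM. In that comparison the members were not limited to those clusters, and no collagen was 2-fold higher against all other E60 cells. FN1 was the only 2-fold gene of 11 elastic and adhesive matrix genes. POSTN, periostin, was at 7675 and 6117 CPM and SPON1 at 25.2 and 12.5 CPM.

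Of 9 adhesion genes besides CADM3, CADM1, CDH2 and CDH13 were 2-fold lower. CADM1, of the same family as CADM3, was at 8.95 and 43.8 CPM, and CDH2, N-cadherin, at 1.26 and 11.7 CPM. NECTIN3, a nectin, was at 91.7 and 56.3 CPM, and CADM2 and CADM4 were at 0.729 and 0.133 CPM. Of the CADM family, CADM3 alone was above the other E60 cells by 2-fold, and that gene was chosen by the rule. Among surface peptidases besides ANPEP, FAP, fibroblast activation protein, was at 136 and 85.3 CPM and DPP4 at 20.1 and 14.5 CPM. None of 3 at 10 CPM differed by 2-fold.

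Of 7 axon guidance genes, SEMA3D, SEMA3E and EPHA4 were 2-fold lower. Of 17 patterning factors, EBF2, MEOX1 and MEOX2 were, with MEOX2 at 12.1 and 70.9 CPM, while the homeobox factors IRX3 and IRX5 were at 330 and 224 CPM against 306 and 191 CPM. The 15 markers of the dermal condensate summed to 4086 CPM in the members and 4297 CPM in the other E60 cells. CRABP1 of this list was high in thinned cells of fibroblast-like clusters that met both limits. It stood between 3964 and 4554 CPM whatever the number of the 6 genes. All 9 markers at 10 CPM were below the other E60 cells, with a median log2 ratio of −0.52. SOX2 was at 0.398 CPM, and SOX18, CXCR4 and TRPS1 were 2-fold lower among the 9 genes. Against the other cells of fibroblast-like clusters, SOX18 and CXCR4 were not, at −0.41 and 0.41. With the members also limited to those clusters, SOX18 was more than 2-fold lower, as given above, and CXCR4 was not. Along the number of the 6 genes in those clusters, SOX18 went from 62.4 CPM with 0 genes to 2.98 CPM with 6. Of 7 fascia and fat precursor genes, DLK1, EBF2 and ZNF423 were 2-fold lower and PPARG was above. Of 4 tendon and cartilage markers outside the rule none differed by 2-fold, and the largest part of their sum was TNC.

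Genes of the response to dissociation were lower in the members than in the other E60 cells, but not than in the cells most like them. All 7 at 10 CPM were below the other E60 cells, with a median of −0.79, and JUN, FOSB and ATF3 were at least 2-fold lower. JUN was at 827 and 1904 CPM and FOS at 3210 and 5143 CPM. The 8 genes summed to 4532 CPM in the members and 7919 CPM in the other E60 cells. In members with 4 of the 6 genes the sum was 4229 CPM, against 4401 CPM in the cells just outside. It was 4716 CPM in members and 4360 CPM in other cells of cluster 4, and 3174 and 3278 CPM in cluster 1. The part of this response in the other differences was not tested. Without the limits on excluded genes, FOSB, DES, ABCC9, KCNJ8, EBF2, ZNF423 and EPHA4 were no longer 2-fold lower, at −0.69, −0.96, −0.57, −0.63, −0.11, −0.996 and −0.68. Against the other cells of fibroblast-like clusters, ID4, COL12A1, KCNJ8, EBF2 and EPHA4 were just short of 2-fold, while CDH13 was at −0.05.

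**Figure D4:**
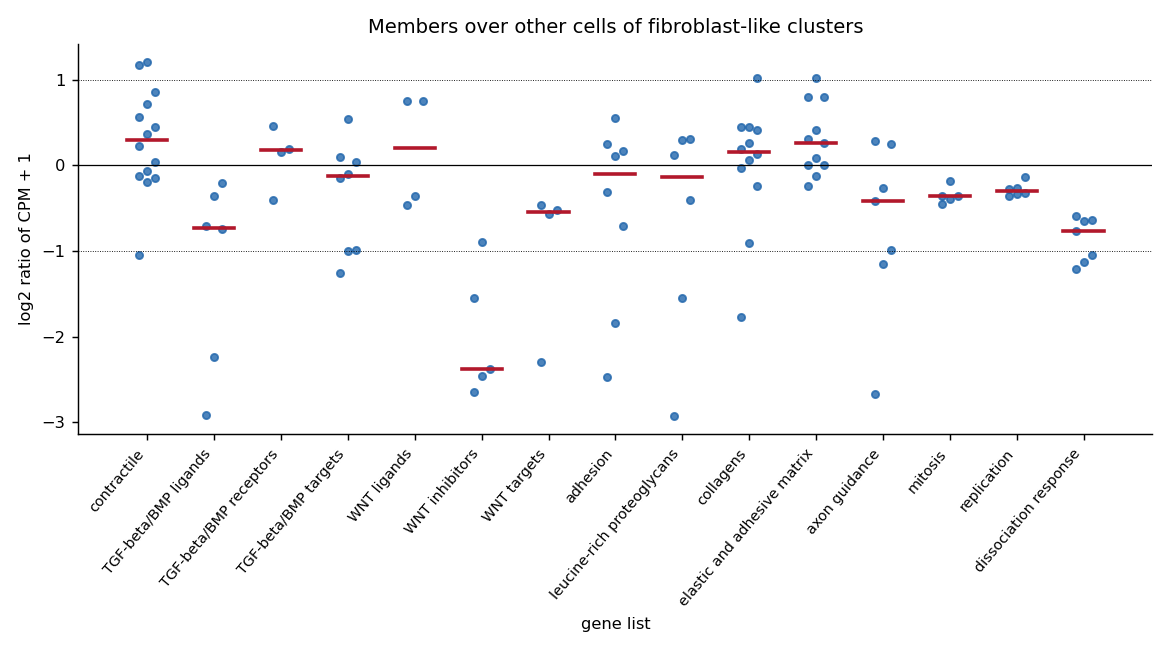
Log2 ratio of CPM + 1, members over the 4713 other cells of fibroblast-like clusters, for each gene of 15 lists that was outside the rule and reached 10 CPM (blue points), with the list median (red bar) and dotted lines at 2-fold. Of the 15 lists shown, WNT inhibitors have the lowest median (−2.38), contractile genes a median of 0.30, and all mitosis, replication and dissociation genes lie below 0.

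Cell cycle genes were slightly lower in the members as a whole and very uneven among them. At 6000 UMIs, 15.8% of members (13.98 to 17.8) had at least 3 UMIs of the 5 mitosis genes, against 18.8% of the other E60 cells (17.8 to 19.9). The unthinned shares were 19.01% and 21.4%. For the 9 replication genes the thinned shares were 18.1% and 22.5%. In cluster 4, 0 of 491 members reached 3 mitosis UMIs, which allows a share of up to 0.748% (upper 95% limit), and in cluster 1 it was 1 of 404. In the cycling clusters it was 208 of 340 members, or 61.2%. Cycling clusters held 22.8% of members (20.6 to 24.97) and 27.6% of the other cells of fibroblast-like clusters (26.4 to 28.9), or 24.3% of all other E60 cells (23.2 to 25.5).

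The 491 members in cluster 4 and the 404 in cluster 1 differed in matrix and in the rule's own genes. ACTA2 was at 584 CPM in cluster 4 members and 184 CPM in cluster 1 members, CADM3 at 596 and 276 CPM, ANGPT1 at 194 and 90.6 CPM and SMOC2 at 183 and 35.4 CPM. COL1A1 was at 2608 and 1165 CPM, LUM at 5153 and 2487 CPM and FAP at 197 and 62.9 CPM. TGFB2 was at 36.1 and 6.26 CPM, CILP, a matrix protein, at 92.8 and 20.7 CPM, and ID1 at 78.4 and 13.6 CPM. Other genes were higher in cluster 1 members. TMEM35A was at 88.4 and 133 CPM, TGFBI at 674 and 918 CPM, MYH10 at 531 and 772 CPM and APCDD1 at 128 and 283 CPM. Apart from the genes of the rule, which were left out of the clustering, these genes could shape the 2 clusters, so the values describe them.

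Some genes that were higher or lower in the members than in the library were similar in members and in other cells of the same cluster, and others were not. Genes outside the rule could shape the clusters, so likeness within a cluster is a description only. In cluster 4, CBR3 was at 296 CPM in the 491 members and 303 CPM in the 112 other cells, RCAN2 at 498 and 516 CPM, MXRA5 at 1137 and 1154 CPM and DLK1 at 43.5 and 43.5 CPM. By contrast, ENSCHIG00000000498 was at 708 and 447 CPM in cluster 4 and at 100.4 and 23.1 CPM in cluster 1. The genes of the rule differed by choice, with ACTA2 at 584 and 193 CPM. Collagens and FAP lay between, with COL1A1 at 2608 and 2059 CPM and FAP at 197 and 139.9 CPM. In cluster 1, CBR3 was at 243 and 196 CPM, RCAN2 at 587 and 552 CPM and TPM1 at 106 and 69.1 CPM in the 404 members and the 812 other cells.

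The 259 members outside cluster 4, cluster 1 and the cycling clusters were more mixed. Of these, 22.4% were called doublets. DLK1 was at 293 CPM in them, against 39.2 to 51.0 CPM in the other 3 groups of members, and ABCC9 at 71.6 CPM against 2.54 to 4.89 CPM. ACTA2 was at 564 CPM, and haemoglobin genes summed to 5132 CPM, compared with 47.8 to 54.2 CPM in the other members.

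Levels of many genes followed the number of the 6 genes found. To even out depth, cells were thinned to 6000 UMIs, and the 5481 cells of fibroblast-like clusters that met both limits were sorted by that number. Of 2232 genes outside the rule that reached 50 CPM in any step, 153 did not fall at any step from 0 to 6 and 122 did not rise at any step. Of these, 95 and 71 changed by at least 2-fold from the first to the last step. The cells share 1 library, the 6 genes vary together with cell type, and the steps have no test.

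CBR3 went from 43.9 CPM in cells with 0 of the 6 genes over 191 CPM with 3 to 259 CPM with 6. FAM129A went from 27.0 over 120 to 341 CPM, CD44 from 77.5 over 238 to 479 CPM and TNC from 243 over 822 to 1259 CPM. TPM1, GPC3 and CALD1 were higher at every step as well, reaching 110 CPM, 135 CPM and 1365 CPM from 13.5 CPM, 13.5 CPM and 332 CPM. Genes of the fibroblast matrix shared this order. COL1A1 went from 810 to 2979 CPM, COL14A1 from 14.3 to 110 CPM, OGN from 393 to 2119 CPM and DCN from 2617 to 7439 CPM. In COL1A1 and OGN more of the increase lay above 3 genes, whereas in CALD1 and CBR3 more of it lay below.

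Genes with the opposite order included 2 of the WNT pathway. APCDD1 went from 1629 CPM with 0 genes over 363 CPM with 3 to 138 CPM with 6, and NKD1 from 90.6 over 8.09 to 1.49 CPM. ISM1 went from 214 over 18.6 to 8.93 CPM, and NCAM1, a neural adhesion molecule, from 323 over 134 to 89.3 CPM. DKK1 and BMP7 fell from 252 and 122 CPM to 17.7 and 5.70 CPM at 3 genes. They stayed between 4.46 and 12.95 CPM and between 0 and 3.89 CPM in cells with 4 to 6. Other genes had their highest level in the middle. RCAN2 was at 99.4 CPM with 0 genes, 508 CPM with 4 and 443 CPM with 6, and TMEM35A at 22.0, 105 and 55.1 CPM. TGFBI was highest with 3 genes, at 765 CPM.

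**Figure D5:**
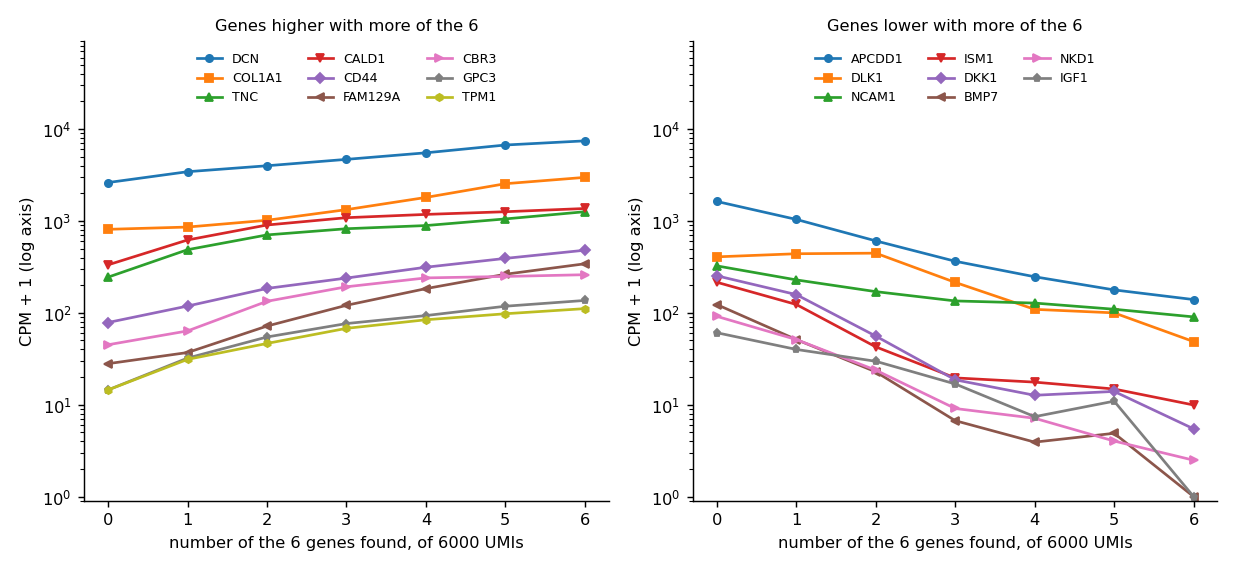
CPM + 1 on a log axis of 17 genes outside the rule against the number of the 6 needed genes found in a cell, all cells thinned to 6000 UMIs and limited to fibroblast-like clusters and to cells within both limits (865, 1455, 1185, 906, 572, 386 and 112 cells from 0 to 6); each point is 1 summed value. DCN, COL1A1, TNC, CALD1, CD44, FAM129A, CBR3, GPC3 and TPM1 are higher with more of the genes, and APCDD1, NCAM1, ISM1 and NKD1 are lower at every step.

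SMOC2 itself differed within the members although the rule limited its group. It was at 82.8 CPM in members with 4 of the 6 genes, 144 CPM with 5 and 220.2 CPM with 6, and at 52.1 CPM in the cells just outside. In the 566 cells of the SMOC2 rule, defined by at least 4 genes of that group, it was at 1180 CPM. Those cells also carried 350.3 CPM of ACTA2, 203 CPM of CADM3 and 166 CPM of GDF10, but 20.9 CPM of ANGPT1 and 95.7 CPM of ANPEP. Of the 6 genes, the members stood furthest above these cells in ANGPT1 and ANPEP, and ECM2 was higher in the SMOC2 cells, at 99.5 CPM. In the 388 cells with at least 3 tendon or cartilage genes, ANGPT1 was at 6.13 CPM and ECM2 at 73.3 CPM.

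The same rule found few cells at the later stages. It was met by 50 of 6931 cells at E90 (0.721%, 0.536 to 0.95) and by 11 of 6896 at E120 (0.160%, 0.0796 to 0.285). Libraries differed in depth, with medians of 8579, 3714 and 13064 UMIs per cell from E60 to E120. When all cells were thinned to 2000 UMIs, the rule found 281 cells at E60 (4.10%), 3 at E90 and 0 at E120, which allows a share of up to 0.0535% there (upper 95% limit). Dissection of follicles at E120 and the pooled fetuses of each stage cannot be told apart from age. Fewer cells of a kind and less RNA of the genes per cell cannot be told apart from the library levels either.

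At the level of whole libraries, GDF10 was at 155 CPM at E60, 3.04 CPM at E90 and 1.58 CPM at E120, and ANGPT1 at 37.6, 3.86 and 3.10 CPM. CADM3 was at 142, 46.0 and 2.14 CPM, ANPEP at 274, 92.1 and 0.953 CPM and ACTA2 at 206, 101 and 40.9 CPM. ECM2 had another order, with 36.2 CPM at E60, 107 CPM at E90 and 2.54 CPM at E120. The 50 cells that met the rule at E90 rarely had GDF10 or ANGPT1. All 50 had ANPEP, 48 had ACTA2, 47 CADM3 and 46 ECM2, whereas 6 had ANGPT1 and 3 GDF10. At E60 GDF10 was in 1454, ANGPT1 in 861 and ECM2 in 736 of the 1494 members. Of the 11 cells at E120, 10 had ANGPT1 and 6 GDF10.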

How the data were processed

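Skin cells of goat fetuses were sequenced with 10x Genomics 3′ version 3 chemistry, 1 library each at E60, E90 and E120, per the labels' protocols. Cell Ranger 3.0.2 is named in the submitters' processing notes, and the genome build and annotation are not given in the sources used here. The table the authors deposited held natural log values of 1 plus counts scaled to 10000 per cell, as the values showed. UMI counts were recovered by inversion, with 100% of nonzero values whole within 0.01, on the assumption that the smallest value in a cell is 1 UMI. The design had assumed counts, and all sums are of recovered counts. Totals were 65049552, 30277663 and 93403291 UMIs at E60, E90 and E120. The E60 cells had 6269 to 43941 UMIs. The table lists 16739 genes, 12709 with a symbol and 4030 with an identifier only. No sequences or coordinates are given.

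E60 cells were clustered without the 16 genes of the rule (2000 variable genes, 30 components, 20 neighbours, Leiden resolution 1; leidenalg 0.10.2, igraph 0.11.9, scipy 1.17.1, Python 3.11.15). A cluster was named for a cell type other than fibroblasts where at least 3 of its markers were in at least 10% of cells at 4 times the library level or more. The remaining clusters were called fibroblast-like where at least 3 fibroblast markers were in 10% of cells, a mild criterion that clusters of every class met. KRT17 of epithelium was among the leading genes of cluster 2 and CILP of tendon among those of cluster 17. This naming rule, and a mean log2 level of 0.5 for cycling clusters, counted among fibroblast-like clusters only, were set after the data had been seen. Doublets were called by Scrublet's algorithm with a doublet rate set to 6%. Calls fell on 3.58% of E60 cells and on 44.8% of simulated doublets, and none was removed unless stated.

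Counts were summed over cells and scaled to CPM, and the comparison of groups used log2 ratios of CPM + 1. No test was made, since cells of 1 library are not replicates. Sums carry exact Poisson and shares exact Clopper-Pearson intervals at 95%. The sums, CPM and 2-fold calls were tested on simulated counts, and the rule on a small made-up matrix. Clustering, cluster naming and doublet calls were not tested in this way. The mural rule required 4 mural markers. Named genes are the 16 of the rule, the 15 highest and 15 lowest of at least 50 CPM against other E60 cells, the 10 and 10 against other cells of fibroblast-like clusters, and list genes of at least 20 CPM. List genes under 20 CPM that passed 2-fold, and those under it named to show a low level, were chosen after their values were seen, as were the genes shown by cluster. Members and gene lists were chosen with earlier results of these data known. Alternatives were the number of genes needed, thinning, no limits, doublets, cell filters, weighting, comparison cells, pseudocount, minimum CPM and clustering.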

Additional observations from a re-analysis of the deposited data

How the results depend on the processing

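The share of E60 cells that met the rule, 21.8%, was 37.1% with at least 3 of the 6 genes, 11.1% with at least 5, 15.9% on thinned counts and 24.7% without the limits. The 13 genes at least 2-fold higher than in the other E60 cells became 21 with at least 3 genes needed, 7 with a pseudocount of 10 CPM, 25 from 10 CPM and 5 from 200 CPM. The 59 lower genes became 35 against the other cells of fibroblast-like clusters, 221 from 10 CPM and 17 from 200 CPM. The median of the contractile list, 0.03, was 0.30 against those cells and −0.19 over all its genes. The share of members in the cluster that held most of them, 32.9%, was 46.4% with at least 5 genes needed, 40.1% on thinned counts, 29.4% without the limits, 39.1% without called doublets, 37.3% with the cell filter, 19.7% at Leiden resolution 2 and 39.2% with the rule's genes kept. In 2 alternatives chosen after seeing the data, the counts higher and lower were 11 and 37 with both groups in fibroblast-like clusters, where the contractile median was 0.21, and 39 and 159 for the members of cluster 4. PLVAP, DEPP1, CCL21, CCL8 and SPP1 turned to 1.11, 1.25, 1.90, 0.93 and 1.03 against the other cells of fibroblast-like clusters, and PLVAP and DEPP1 to 0.14 and 0.48 with both groups there. Apart from the number of members and the changed comparison cells, the cause of these moves was not tested. Of 42 further list genes at least 2-fold lower, 31 were so without the limits, 25 against the other cells of fibroblast-like clusters, 26 with a pseudocount of 10 CPM and 38 to 42 under the other planned settings. No paired analysis was possible because each stage has 1 library. Depth limits the rule: a median member had 0 UMIs of ANGPT1 and ECM2 among 6000.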
